A study of Mus musculus with 6 samples.

Results

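The 52 genes described here are the measured members of the main enzyme families that oxidise lipids and foreign compounds and then couple the products to sugars, sulfate or glutathione. They were chosen by gene symbol, with earlier results of these data known. The rule took rows of the deposited table that belong to the cytochrome P450 (Cyp), flavin-containing monooxygenase (Fmo), epoxide hydrolase (Ephx), glutathione transferase (Gst and Mgst), glucuronosyltransferase (Ugt) and sulfotransferase (Sult) families. Of 7373 rows, 58 matched these symbols, and 6 Cyp rows (Cyp4a10, Cyp4a12a, Cyp4a31, Cyp2j13, Cyp4b1 and Cyp7b1) were set aside by the rule. The rule also drops a row at 0 in control 3, and no matching row was lost that way. The 52 members comprise 14 Cyp, 4 Fmo, 2 Ephx, 15 cytosolic Gst, 2 Mgst, 12 Ugt and 3 Sult genes.

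Kidneys came from adult males of the inbred strain FVB/N, and their messenger RNA was profiled by sequencing. In the Transgenic group (3 samples) the mice overexpressed CryAB, a chaperone of the small heat shock family, with the R120G missense mutation. The promoter of α-myosin heavy chain restricts this transgene to cardiomyocytes, so the kidney was not its target tissue, and the kidneys were taken before the onset of heart failure. The Control group (3 samples) was matched for age and sex. The column headings mark all 6 samples as Pre_IRI, and no sample after IRI was analysed here. The sample labels name no other treatment, give the age only as adult, and do not say which animal each sample came from. The p-values thus reflect variation among these 6 samples, which may be partly technical. The question posed by the design is how kidneys differ when the heart carries a cardiomyopathy that is not yet symptomatic.

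Oxidation by Cyp or Fmo enzymes places an oxygen atom on a lipid, steroid or drug, and epoxide hydrolases open the epoxides that some Cyp enzymes form. Transferases then attach glutathione (Gst, Mgst), glucuronic acid or another sugar (Ugt) or sulfate (Sult), which makes most products easier to excrete. In the mouse kidney these enzymes are concentrated in the proximal tubule, the first tubule segment after the glomerulus, and several Cyp genes there are sex-dependent and androgen-responsive.

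The listed genes drew between 23.5 and 47.6 M estimated counts per library (M for 1000000), and the members together held 1.25% to 1.46% of them. The lowest single member count was 45 in Transgenic 3, an Ugt1a row. Kidney identity was clear from the markers: the summed level of 7 proximal tubule genes was 59568 to 63133 CPM (counts scaled to 1000000 per library) in Transgenic kidneys and 60255 to 68952 CPM in Control kidneys. Most of that sum was 1 gene, Kap, at 45318 to 50386 CPM in Transgenic kidneys and 47457 to 55924 CPM in Control kidneys. None of 6 hepatocyte markers was in the table. Control 3 stood apart from the other libraries, with a score of 23.7 on the first principal component (53.5% of the variance) against −10.8 to 1.03 in the other 5 libraries. It was also at 0 for all 178 rows that were left out of the fit, of which 176 lie on the X chromosome and 1 on the Y chromosome. No row matched to X or Y was above 0 in this library. Libraries numbered 3 in both groups had their Ugt1a counts divided among genes in another way than the other 4 libraries, as described next. In bulk kidney, fewer cells of a type and less RNA per cell cannot be told apart.

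The Ugt1a genes, whose enzymes glucuronidate bilirubin (Ugt1a1), phenols and many drugs, had to be read as a sum. The 7 measured Ugt1a genes lie in 1 locus on chromosome 1 (chr1:88055411-88220002, plus strand, GRCm38.p6). Each has its own first coding exon, and each is spliced to the same later exons, which begin with the shared exon 2 at chr1:88215044-88215175. From that exon on, the 7 transcripts are identical over 1311 bases, which is 57.1% to 59.9% of the annotated transcript for 6 genes and 40.6% for Ugt1a7c. The exon junctions are shown because they are the place where the 7 transcripts become the same. The last 30 bases of each gene's own exon are in lower case and the first 30 bases of the shared exon are in capitals, written 5′ to 3′ from GENCODE transcripts of GRCm38.
Ugt1a1: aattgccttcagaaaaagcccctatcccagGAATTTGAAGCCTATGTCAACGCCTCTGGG
Ugt1a2: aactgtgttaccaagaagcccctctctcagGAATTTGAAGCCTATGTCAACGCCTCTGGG
Ugt1a5: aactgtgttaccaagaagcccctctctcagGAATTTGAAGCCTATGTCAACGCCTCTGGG
Ugt1a6a: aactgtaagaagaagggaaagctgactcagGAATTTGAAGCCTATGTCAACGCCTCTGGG
Ugt1a7c: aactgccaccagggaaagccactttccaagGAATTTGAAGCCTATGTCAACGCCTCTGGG
Ugt1a9: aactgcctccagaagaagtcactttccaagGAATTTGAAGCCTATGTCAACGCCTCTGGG
Ugt1a10: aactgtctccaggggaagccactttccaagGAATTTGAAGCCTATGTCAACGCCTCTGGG
In the lower-case part, the other genes differ from Ugt1a1 at 7 (Ugt1a9) to 16 (Ugt1a6a) of the 30 bases, while Ugt1a2 and Ugt1a5 have the same letters across the whole window.

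The counts of these 7 genes were divided in 1 of 2 ways. In Transgenic 1 and 2 and in Control 1 and 2, each gene held between 13.97% and 15.0% of the summed Ugt1a count, and the highest row was 1.06 to 1.07 times the lowest. In Transgenic 3 and Control 3 the rows were unequal, with the highest 278 times the lowest in Transgenic 3 and 409 times in Control 3. In those libraries Ugt1a10 held 40.2% in Transgenic 3 and 40.7% in Control 3. Ugt1a7c held 36.7% in Transgenic 3 and 36.2% in Control 3. Ugt1a9 held 14.0% in Transgenic 3 and 14.4% in Control 3, close to its share in the other 4 libraries. Ugt1a6a held 7.86% in Transgenic 3 and 7.68% in Control 3, while Ugt1a1, Ugt1a2 and Ugt1a5 each held less than 1%. The split thus followed the library number and not the genotype. Single Ugt1a rows are not comparable between libraries, and their fitted standard errors reached 1.36 on the log2 scale for Ugt1a5.

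**Figure D1:**
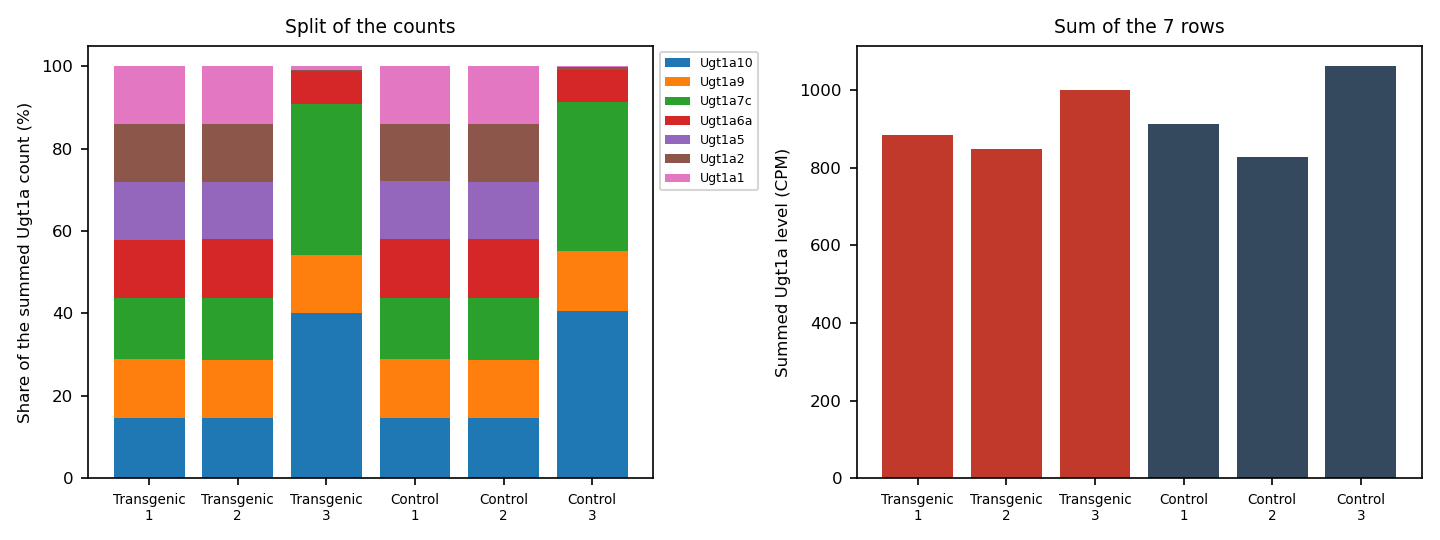
The left panel plots the share of each of 7 Ugt1a genes in the summed Ugt1a count (%) for each kidney library, and the right panel the summed level in CPM. The shares are nearly equal in libraries 1 and 2 of both groups and unequal in both libraries numbered 3, where Ugt1a10 and Ugt1a7c hold the most, while the sum lies between 828 and 1061 CPM in the 6 libraries.

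The sum of the 7 rows does not depend on how reads were divided among them, but reads given to other genes of the locus are not in it, such as Ugt1a8, which shares 40.0% of the transcript windows of Ugt1a7c. Summed Ugt1a was 883, 847 and 999 CPM in Transgenic kidneys 1 to 3, against 913, 828 and 1061 CPM in Control kidneys 1 to 3. Library 3 was the highest in each group, and the groups overlapped. The log2 fold change, Transgenic over Control, was −0.04 with a standard error of 0.12 (edgeR quasi-likelihood test, adjusted p = 0.997), and it was −0.01 ± 0.09 (SE) in libraries 1 and 2 alone. With 1 library left out it lay between −0.12 and 0.06.

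Across the 52 members, no gene passed the test between Transgenic and Control kidneys. At an adjusted p under 0.05, 0 of 52 members were called by edgeR, where the whole table had 1 call in 7194 genes (0.0139%); DESeq2 and limma on the authors' log2 values also called 0 members. At an unadjusted p under 0.05 there were 2 members, Cyp2d12 and Cyp2a5, where 1.82% of all genes tested reached that level. With 1 library left out, 1 to 5 members reached it, where the share of all genes tested was 0.653% without Transgenic 1 and 8.30% without Control 2. Cyp2d12 was among them each time and Cyp2a5 in 3 of 6 cases. With all libraries, the same genes were the 2 of 52 members whose groups did not overlap, both higher in Transgenic kidneys. Over all genes tested, 5.98% had groups without overlap, 2.96% higher and 3.02% lower, so the members' count of 2 is near that background. Adjusted p-values of the members lay between 0.997 and 1.

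Most members differed little in size between the groups. The median log2 fold change was 0.01 over the 45 members outside Ugt1a, with 23 higher and 22 lower in Transgenic kidneys, and 0.00 over all genes tested. Their values ran between −0.44 (Sult1d1) and 0.44 (Cyp2d12). An absolute log2 fold change above 0.2 was seen in 8 of the 45, or 17.8%, and in 11.1% of all genes tested. The median standard deviation of log2 CPM within groups was 0.18 for these members and 0.14 for all genes tested, so the members also varied somewhat more between kidneys of 1 group.

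**Figure D2:**
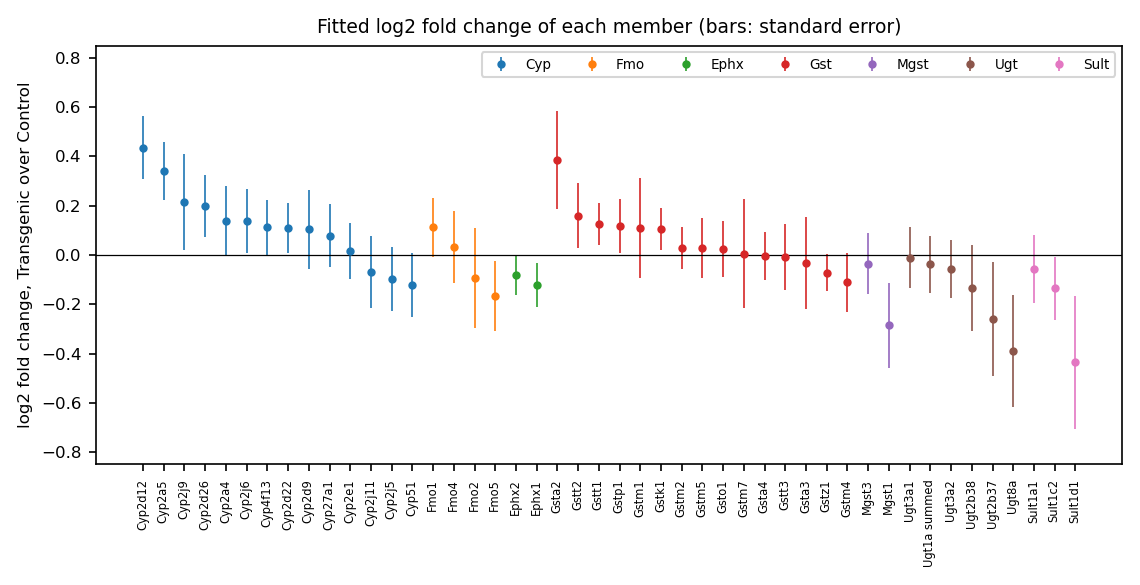
The vertical axis is the fitted log2 fold change, Transgenic over Control, of each member outside Ugt1a and of summed Ugt1a, with standard errors as bars and colours for the enzyme families. Cyp genes lie mostly above 0 (11 of 14) and the Ugt and Sult points below it, none past the adjusted threshold. Without Control 3, 5 of the single Ugt and Sult genes were above 0. Summed Ugt1a lay between −0.12 and 0.06 with 1 library left out. Cyp2d12, Cyp2a5 and Gsta2 have the highest values.

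Among the cytochromes P450, 11 of 14 members were higher and 3 were lower in Transgenic kidneys, with a median log2 fold change of 0.11, and none passed the adjusted test. Over all genes tested, 3620 of 7194 were higher. The 6 Cyp genes set aside by the rule had 3 higher and 3 lower, so the count of 11 does not cover all measured Cyp genes. The summed level of the 14 Cyp members was 5199 ± 399 CPM in Transgenic kidneys and 5155 ± 160 CPM in Control kidneys (SD, n = 3 each). The sum therefore differed by less than the spread between replicates. It is dominated by a few genes, first of all Cyp2e1.

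Cyp2e1, which oxidises ethanol and small solvents, was the most abundant member per length, at 1087 CPM per kilobase of transcript. It had 2185, 1831 and 1996 CPM in Transgenic kidneys, against 2032, 2150 and 1762 CPM in Control kidneys. The groups overlapped throughout their ranges, and the log2 fold change was 0.02 ± 0.11 (SE).

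Cyp2j5, a kidney epoxygenase of arachidonic acid known to be androgen-dependent in mice, was second among the Cyp members with 480 CPM per kilobase. Its level was 1071, 1021 and 1173 CPM in Transgenic kidneys, against 1101, 1006 and 1384 CPM in Control kidneys, and the log2 fold change was −0.10 ± 0.13 (SE). Control 3 gave the highest value, and the groups overlapped. The other Cyp2j genes did not share a direction, with log2 fold changes of −0.07 for Cyp2j11, 0.14 for Cyp2j6 and 0.22 for Cyp2j9. Cyp2j9 was lowest in Control 3 at 32.8 CPM, against 47.7 to 64.0 CPM in the 3 Transgenic kidneys and 52.3 and 52.9 CPM in the other Control kidneys. Without that library Cyp2j9 was at 0.02 and Cyp2j11 at 0.13 on the log2 scale.

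Cyp2d12, a member of the Cyp2d family of drug- and steroid-oxidising enzymes, had the smallest unadjusted p of all members. It was at 31.1, 29.2 and 38.1 CPM in Transgenic kidneys, against 22.02, 24.9 and 25.8 CPM in Control kidneys. Each Transgenic kidney was above each Control kidney. The log2 fold change was 0.44 ± 0.13 (SE), a ratio of 1.35, with an unadjusted p of 0.00808, rank 13 of 7194 genes, and an adjusted p of 0.997 in the edgeR test. Leaving out 1 library at a time kept it between 0.31 and 0.51. Of the windows of 75 bases in its transcript, 5.32% also occur in Cyp2d9, whose coding sequence is 92.1% identical and whose level was 150 CPM per kilobase against 17.2 for Cyp2d12. How many of its reads came from that neighbour was not tested.

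The 4 measured Cyp2d genes are neighbours on chromosome 15 (chr15:82370527-82794452), and all 4 were higher in Transgenic kidneys, with a median log2 fold change of 0.15, although Cyp2d9 turned to −0.10 without both libraries numbered 3. Cyp2d26 was at 61.0, 57.3 and 78.2 CPM in Transgenic kidneys, against 55.5, 55.2 and 60.6 CPM in Control kidneys. Its log2 fold change of 0.20 ± 0.13 (SE) was 0.05 without Transgenic 3, the kidney with the highest level. Cyp2d22, the counterpart of the human drug enzyme CYP2D6, had a log2 fold change of 0.11 ± 0.10 (SE), and Cyp2d9, a testosterone hydroxylase of male mice, had 0.10 ± 0.16 (SE). Transgenic 3 gave the highest value for all 4 genes. Without that library all 4 were still higher in Transgenic kidneys, but the median log2 fold change was 0.046.

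Cyp2a5, a coumarin hydroxylase, was the other member without overlap. It had 58.5, 58.3 and 49.3 CPM in Transgenic kidneys, against 48.9, 38.1 and 44.1 CPM in Control kidneys. The lowest Transgenic value and the highest Control value were nearly equal. The log2 fold change was 0.34 ± 0.12 (SE; edgeR unadjusted p = 0.0198, adjusted p = 0.997) and stayed between 0.25 and 0.43 with 1 library left out. Its coding sequence is 98.4% identical to that of Cyp2a4, a steroid hydroxylase at 421 CPM per kilobase against 24.6 for Cyp2a5, and 25.5% of its transcript windows occur in another gene. Reads of the pair can therefore have been exchanged in counting, and how much was not tested. Cyp2a4 itself was at 878, 683 and 737 CPM in Transgenic kidneys, against 633, 621 and 835 CPM in Control kidneys, with a log2 fold change of 0.14 ± 0.14 (SE), which was 0.03 without Transgenic 1 and 0.29 without Control 3.

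Of the Cyp members with a role in sterol metabolism, Cyp51, the sterol demethylase of cholesterol synthesis, was at 517, 394 and 408 CPM in Transgenic kidneys, against 445, 446 and 545 CPM in Control kidneys. Its log2 fold change was −0.12 ± 0.13 (SE), −0.25 without Transgenic 1 and −0.02 without Control 3. Cyp27a1, a mitochondrial sterol hydroxylase, had a log2 fold change of 0.08 ± 0.13 (SE), and both genes had overlapping groups. Cyp4f13, of a family that hydroxylates fatty acids and leukotrienes at the chain end, had 0.11 ± 0.11 (SE), and 0.0088 without Control 3.

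**Figure D3:**
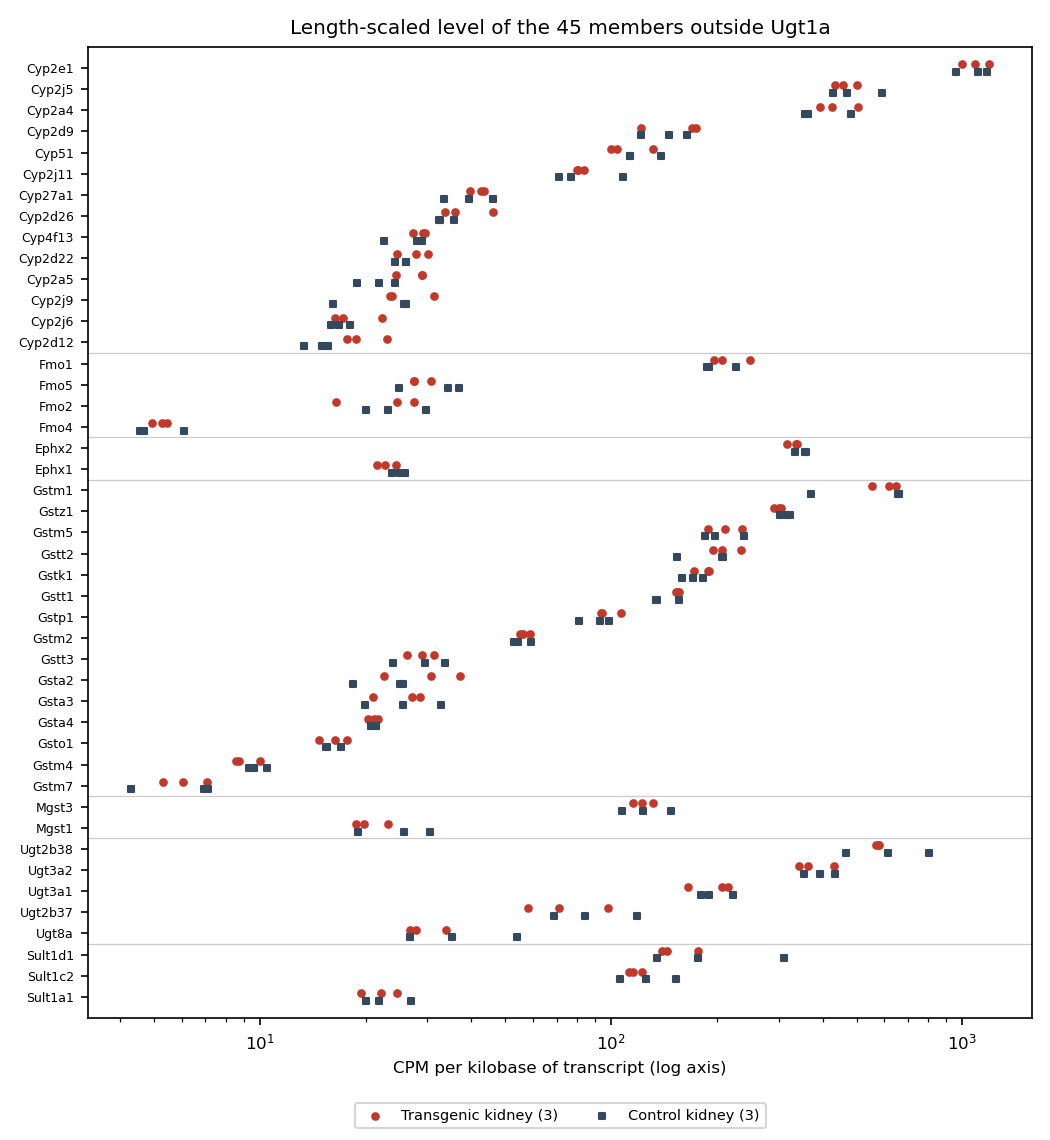
The horizontal axis gives the level per length (CPM per kilobase of transcript, log axis) of the 45 members outside Ugt1a, 1 row per gene within its family, with circles for Transgenic kidneys and squares for Control kidneys. Levels run from a mean of 5.16 (Fmo4) to 1087 on average (Cyp2e1), and the circles and squares of a gene overlap except in Cyp2d12 and Cyp2a5.

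The remaining oxidising enzymes were close between groups. Fmo1, the main renal flavin monooxygenase of the mouse, was at 595, 469 and 496 CPM in Transgenic kidneys, against 453, 542 and 448 CPM in Control kidneys, with a log2 fold change of 0.11 ± 0.12 (SE). It ranged between 0.0038 without Transgenic 1 and 0.21 without Control 2. Fmo5 was at 142, 143 and 160 CPM in Transgenic kidneys, against 191, 179 and 130 CPM in Control kidneys, with a log2 fold change of −0.17 ± 0.14 (SE). That value was −0.06 without Control 1, −0.32 without Control 3 and −0.38 without both libraries numbered 3. Control 3 was the lowest library for Fmo5 and lay below all Transgenic kidneys, while the other Control kidneys lay above them. Fmo2 had a log2 fold change of −0.09 ± 0.20 (SE) and Fmo4 of 0.03 ± 0.15 (SE).

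Ephx2, the soluble epoxide hydrolase that turns the epoxides of arachidonic acid into diols, was at 688, 643 and 686 CPM in Transgenic kidneys, against 732, 678 and 724 CPM in Control kidneys. Ephx1, the microsomal enzyme that acts on foreign epoxides, was at 37.6, 42.4 and 39.6 CPM in Transgenic kidneys, against 41.4, 43.6 and 45.04 CPM in Control kidneys. Both genes varied little within groups, with pooled standard deviations of log2 CPM of 0.06 and 0.08. Their log2 fold changes were −0.08 ± 0.08 (SE) for Ephx2 and −0.12 ± 0.09 (SE) for Ephx1, and in each the ranges of the groups overlapped.

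The cytosolic glutathione transferases had 10 of 15 members higher and 5 lower in Transgenic kidneys, with a median log2 fold change of 0.03 and no gene past the test. They summed to 2607 ± 101 CPM in Transgenic kidneys and 2485 ± 172 CPM in Control kidneys (SD, n = 3 each). Gstm1, of the mu class and the highest of them per kilobase, was at 835, 798 and 714 CPM in Transgenic kidneys, against 852, 845 and 479 CPM in Control kidneys. Only Control 3 was low, at 0.564 times the mean of the other Control kidneys. A log2 fold change of 0.11 ± 0.20 (SE) became −0.12 without Control 3.

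Gsta2, an alpha class enzyme that reduces lipid peroxides, had the highest value among the transferases. It was at 26.6, 32.3 and 19.6 CPM in Transgenic kidneys, against 22.2, 16.1 and 21.8 CPM in Control kidneys. Transgenic 3 lay below both Control 1 and Control 3, so the groups overlapped, and the log2 fold change was 0.38 ± 0.20 (SE; edgeR unadjusted p = 0.087, adjusted p = 0.997). It was 0.63 in libraries 1 and 2 alone, 0.21 without Transgenic 2 and 0.25 without Control 2. Of its transcript windows, 46.9% are shared with other annotated genes, so its count may hold reads of close relatives.

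The other alpha class genes stood at similar levels, 25.9 CPM per kilobase for Gsta3 and 21.1 for Gsta4. Gsta4, which conjugates hydroxynonenal from lipid peroxidation, was the steadiest member, at 20.7, 19.9 and 21.2 CPM in Transgenic kidneys, against 20.3, 20.9 and 20.9 CPM in Control kidneys. Its pooled standard deviation of log2 CPM was 0.04, and its log2 fold change was −0.01 ± 0.10 (SE). Gsta3 was far more variable, at 41.5, 30.7 and 39.6 CPM in Transgenic kidneys, against 29.1, 37.3 and 47.9 CPM in Control kidneys.

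Gstt1, of the theta class, was at 162, 161 and 159 CPM in Transgenic kidneys, against 161, 140 and 139 CPM in Control kidneys. The Transgenic kidneys were nearly alike, and Control 1 lay level with them. Its log2 fold change was 0.13 ± 0.09 (SE). Gstk1, the mitochondrial and peroxisomal enzyme, was at 176, 161 and 177 CPM in Transgenic kidneys, against 159, 148 and 169 CPM in Control kidneys, with a log2 fold change of 0.11 ± 0.09 (SE).

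Gstz1, which also serves tyrosine breakdown, was at 482, 498 and 503 CPM in Transgenic kidneys, against 500.2, 537 and 522 CPM in Control kidneys. Gstp1, the pi class enzyme, had 77.6, 76.8 and 87.5 CPM in Transgenic kidneys, against 80.7, 76.1 and 66.4 CPM in Control kidneys, but 57.7% of its transcript windows are identical in Gstp2, and how reads of the pair were assigned was not tested. The remaining cytosolic members, Gstm2, Gstm4, Gstm5, Gstm7, Gsto1, Gstt2 and Gstt3, had log2 fold changes between −0.11 (Gstm4) and 0.16 (Gstt2).

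The microsomal transferases were led by Mgst3, which can conjugate a leukotriene precursor with glutathione. It was at 144, 126 and 135 CPM in Transgenic kidneys, against 135, 118 and 163 CPM in Control kidneys, with a log2 fold change of −0.03 ± 0.12 (SE). Mgst1, a membrane-bound transferase and peroxidase, was at 27.1, 21.96 and 23.1 CPM in Transgenic kidneys, against 22.2, 29.9 and 35.6 CPM in Control kidneys. Its log2 fold change was −0.28 ± 0.17 (SE), and −0.12 without Control 3. Control 1 and Transgenic 2 had almost equal levels.

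**Figure D4:**
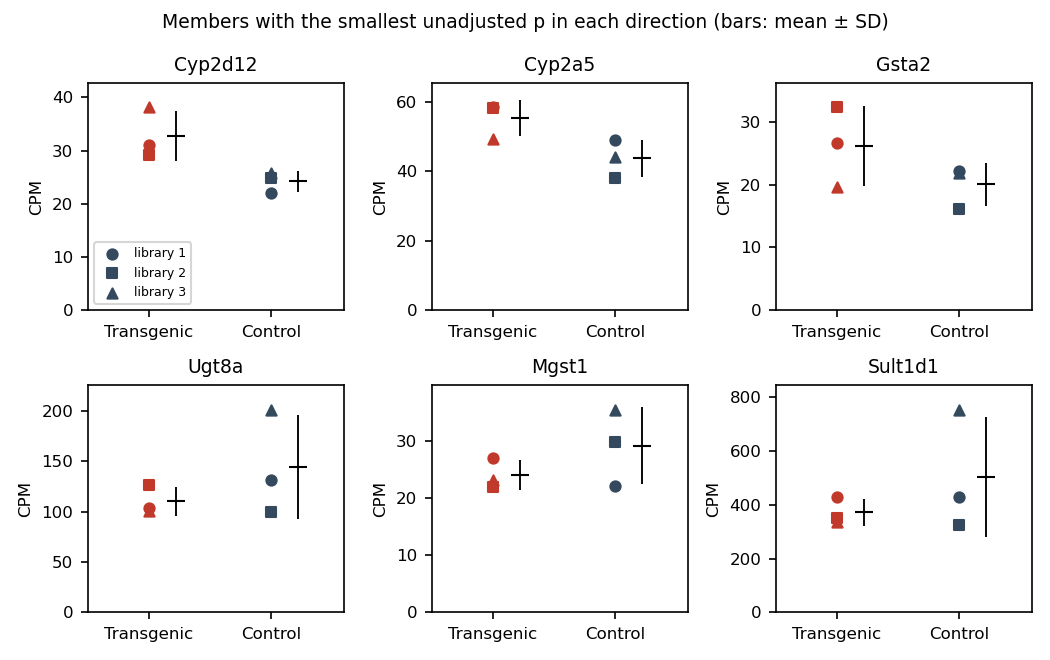
Each panel plots CPM of 1 gene in the 3 Transgenic and 3 Control kidneys, with a marker shape per library number and the mean ± SD beside the points. The upper genes have the smallest unadjusted p among members higher in Transgenic kidneys and the lower genes among members lower there; the groups are apart for Cyp2d12 and Cyp2a5 alone, and Ugt8a, Mgst1 and Sult1d1 are highest in Control 3.

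The glucuronosyltransferases and other sugar transferases outside Ugt1a numbered 5, and all 5 had a negative log2 fold change, with a median of −0.13 and no gene past the test. Without Control 3 only 2 of the 5 were negative, Ugt2b37 at −0.02 and Ugt8a at −0.07, and the median was 0.02. Ugt2b38, the highest of them per kilobase, was at 1086, 1075 and 1092 CPM in Transgenic kidneys, against 1162, 884 and 1525 CPM in Control kidneys. The Transgenic values lay within the wide range of the Control values, and the log2 fold change was −0.13 ± 0.17 (SE). Ugt2b37, whose coding sequence is 94.1% identical to it, was at 135, 186 and 110 CPM in Transgenic kidneys, against 160, 130 and 225 CPM in Control kidneys, with a log2 fold change of −0.26 ± 0.23 (SE).

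Ugt8a, the enzyme that adds galactose to ceramide in sphingolipid synthesis, was at 104, 127 and 100 CPM in Transgenic kidneys, against 132, 100.2 and 201 CPM in Control kidneys. Control 3 was 1.7 times the mean of the other Control kidneys. On the log2 scale the difference was −0.39 ± 0.23 (SE), but −0.07 without Control 3. Ugt3a2 was at 847, 798 and 1003 CPM in Transgenic kidneys, against 914, 826 and 1014 CPM in Control kidneys, and its log2 fold change was −0.06 ± 0.12 (SE). Ugt3a1, its neighbour on chromosome 15, had −0.01 ± 0.12 (SE). In humans the enzymes of the Ugt3 family use other sugars than glucuronic acid.

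The 3 sulfotransferases also had negative log2 fold changes, but without Control 3 only Sult1d1 did, with Sult1a1 at 0.07 and Sult1c2 at 0.01. Sult1d1, which sulfates dopamine and related compounds in the mouse, was at 427, 350 and 337 CPM in Transgenic kidneys, against 428, 326 and 753 CPM in Control kidneys. Control 3 was 1.996 times the mean of the other Control kidneys, and the remaining 5 libraries lay between 326 and 428 CPM. The log2 fold change was −0.44 ± 0.27 (SE; edgeR adjusted p = 0.997), −0.02 without Control 3, and 0.04 without both libraries numbered 3. Sult1c2 was at 208, 214 and 225 CPM in Transgenic kidneys, against 232, 196 and 283 CPM in Control kidneys, with −0.14 ± 0.13 (SE). Sult1a1, a phenol sulfotransferase, had −0.06 ± 0.14 (SE).

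All 5 Ugt genes outside Ugt1a, all 3 Sult genes and both Mgst genes had their highest level in Control 3. Of the 45 members outside Ugt1a, 17 (37.8%) were highest in Control 3 and 13 (28.9%) were lowest there, and over all genes tested these shares were 34.8% and 32.6%. In Control 2, 4 of the 45 (8.89%) were highest and 15 (33.3%) were lowest, against 18.1% and 20.5% of all genes tested. Against the mean of the other Control kidneys, 3 members were over 1.5 times higher in Control 3 (Sult1d1, Ugt8a and Ugt2b37) and 3 were lower by the same factor (Gstm1, Cyp2j9 and Gstm7). Each count is 6.67% of the members, compared with 3.29% higher and 3.96% lower over all genes tested. The part that this library's other differences had in these values was not tested.

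**Figure D5:**
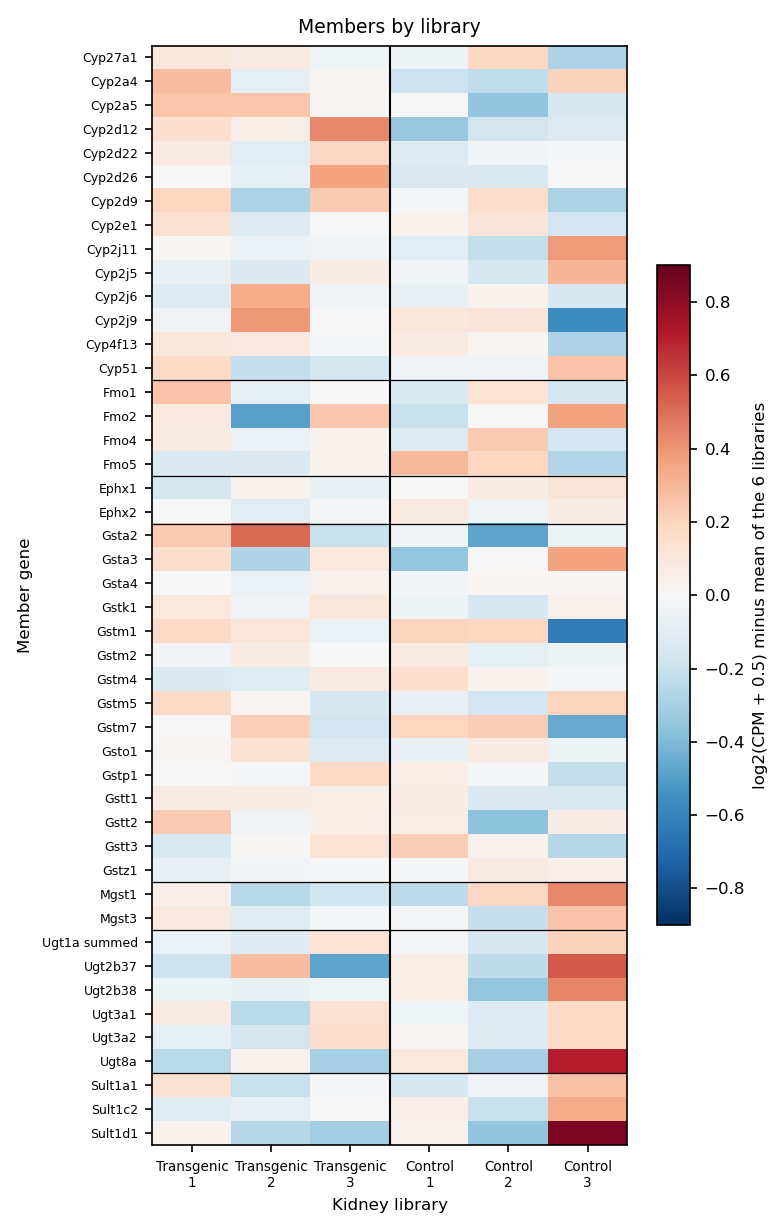
Colours give log2(CPM + 0.5) of each member outside Ugt1a, and of summed Ugt1a, minus its mean over the 6 libraries, with Transgenic kidneys left of the line and Control kidneys right of it. Among the strongest colours are those of Control 3, high for Sult1d1, Ugt8a, Ugt2b37 and Ugt2b38 and low for Gstm1 and Cyp2j9, while Cyp2d12 is above its mean in all 3 Transgenic kidneys and below it in all 3 Control kidneys.

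Ugt2b37, Ugt2b38 and Sult1d1 are neighbours on chromosome 5 (chr5:87240492-87569006), and each had its highest level in Control 3.

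Promoter letters were searched on both strands in the 300 bases from 250 before to 50 after an annotated start of a gene (RefSeq, GRCm38.p6, available for 45 members and for 5816 genes of the deposited table). Some starts lay within the gene, as in Fmo5. Some genes, such as Gstm1, had more than 1 start, and a match at any of them counted. TATAAA was in 31.1% of the member promoters and in 8.61% of those of table genes (15.7% over all 27025 RefSeq genes with a promoter), with Cyp2e1, Cyp2j5, Cyp2a4 and Cyp2a5 among the 14 members. TGACNNNGC, the core of the antioxidant response element, was in 5 members (11.1%) and in 17.2% of table genes (14.0% of all). GCGTG, the core bound by the aryl hydrocarbon receptor, was in 10 members (22.2%) and in 57.2% of table genes (35.2% of all). CAAAGTCCA, a sequence bound by HNF4, was in no member promoter and in 0.567% of those of table genes (0.555% of all). A match describes letters and is not a measured binding site.

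Genes that work with these enzymes were close between groups as well. Of 67 listed, 50 were measured, and 0 passed the edgeR test, where 0.0139% of all genes tested did. At an unadjusted p under 0.05 there were also 0, against 1.82% of all genes tested. Groups without overlap were seen in 0 of the 50, against 5.98% of all genes tested. The median log2 fold change of the 50 was −0.03, with 19 higher and 31 lower. Por, the reductase that supplies electrons to microsomal Cyp enzymes, was at 471, 450 and 460 CPM in Transgenic kidneys, against 482, 422 and 491 CPM in Control kidneys, which gave −0.01 ± 0.09 (SE) on the log2 scale. The lowest values by p were those of Acsm3, a medium-chain acyl-CoA synthetase, at −0.46 ± 0.20 (SE), of Ugp2, which makes UDP-glucose, at −0.23 ± 0.13, of Nat8, which completes mercapturates by acetylation, at −0.17 ± 0.10, and of Acsm2, at −0.20 ± 0.14. The highest by p were Acy1, an aminoacylase, at 0.15 ± 0.10 (SE), Ces2c, a carboxylesterase, at 0.14 ± 0.16, Gclc, the catalytic subunit for glutathione synthesis, at 0.14 ± 0.15, and the transcription factor Ppara, at 0.13 ± 0.16.

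Regulators were measured too. Hnf4a had a log2 fold change of 0.09 ± 0.12 (SE) and Nfe2l2, which acts on antioxidant response elements, of −0.12 ± 0.15 (SE). Of the 6 Cyp genes set aside by the rule, Cyp2j13 had groups without overlap and was lower in Transgenic kidneys, with a log2 fold change of −0.19 ± 0.09 (SE; edgeR adjusted p = 0.997). The others lay between −0.13 (Cyp4b1) and 0.19 (Cyp4a10). Groups without overlap were seen in 5.98% of all genes tested.

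The marker lists of the S3 segment, podocytes and endothelium had summed levels without overlap between the groups, as had the 1 measured gene of the adrenal list. The groups overlapped in all other lists with measured genes. Of all single genes tested, 5.98% had groups without overlap, and no single marker passed the edgeR test (adjusted p = 0.997). The summed level of 5 markers of the S3 segment, the last part of the proximal tubule, was 1143 to 1277 CPM in Transgenic kidneys and 1288 to 1438 CPM in Control kidneys. Within that list Slc7a13 was at −0.25 and Aadat at −0.20 on the log2 scale, while Slc5a1 was at −0.03, Slc22a7 at 0.02 and Acox2 at 0.06. The 4 S1 markers spanned 830 to 1154 CPM in Transgenic kidneys and 889 to 1251 CPM in Control kidneys. The 3 S2 markers spanned 1617 to 1869 CPM in Transgenic kidneys and 1649 to 1695 CPM in Control kidneys. Podocyte markers (2 of 4 measured) summed to 140 to 171 CPM in Transgenic kidneys, against 89.6 to 123 CPM in Control kidneys, and endothelial markers (3 of 4 measured) to 191 to 217 CPM in Transgenic kidneys, against 219 to 289 CPM in Control kidneys. Of the endothelial genes, Plvap was at −0.30, Pecam1 at 0.05 and Emcn at −0.30 on the log2 scale, the last with 86.6 CPM in Control 3 and 41.8 to 49.5 CPM in the other libraries. The part of these sums in the members' values was not tested. Of 7 adrenal markers 1 was in the table, Akr1b7, at 6.47 to 7.79 CPM in Transgenic kidneys and 4.49 to 5.67 CPM in Control kidneys. A single gene at this low level cannot show whether adrenal tissue was present.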

How the data were processed

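Per the labels' protocols, halved frozen kidneys gave column-purified RNA for standard Illumina libraries, and mm10 was the build, per the submitters' processing notes. No aligner or counting program is named in what was used. A single table of 7373 rows was deposited. It lists, per the file headers, those genes with an NRPKM value of at least 5 in 2 or more of 6 samples, so low genes are not analysed here. The deposited raw columns hold estimated counts that are not whole numbers; 41.5% to 53.5% of values under 3000 were whole within 0.02 once multiplied by 75. The deposited normalized columns hold log2 values, which equal, as tested here, the log2 of the estimated count over 1 factor per library, minus 1 baseline per gene. A further 12 columns of per-sample values match no sample listed here and were not used.

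Estimated counts were rounded. The 178 rows at 0 in control 3 were left out, and the edgeR (4.0.16, R 4.3.3) quasi-likelihood test, with no covariate beside group, with filterByExpr (1 row removed) and TMM, was run on the other rows, with Benjamini-Hochberg adjustment over 7194 genes, two-sided, threshold 0.05. Standard errors are the absolute log2 fold change over the square root of F. CPM use TMM library sizes, and levels per kilobase use the longest GENCODE protein-coding transcript at the RefSeq start. Ratios of Control 3 to the mean of the other Control kidneys were taken after adding 0.5 CPM to each. With 3 against 3 samples an exact permutation test cannot go below p = 0.1, so none was used. Alternatives used DESeq2 (1.42.0) and limma (3.58.1). Totals were 29.0, 23.5 and 31.7 M estimated counts in Transgenic 1 to 3 and 28.0, 34.9 and 47.6 M in Control 1 to 3, with medians of 1205 to 2362 per gene. All 52 members and 7342 of the rows matched RefSeq by gene ID.

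Named genes were the members without overlap, the 6 smallest p in each direction, the 2 most abundant per family, the 6 widest ranges, and 22 fixed by renal role, of which 18 were measured; the other members are named to complete their families. Members and lists were chosen with earlier results of these data known. Summing the Ugt1a rows and leaving out both libraries numbered 3 were chosen after seeing the data. Of the listed genes and motifs, 1 regulator and its motif are not reported here.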

Additional observations from a re-analysis of the deposited data

How the results depend on the processing

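In every alternative run, 0 members passed the adjusted threshold, and the lowest adjusted p of a member was 0.578, without Control 2. The count of all genes past it, 1 with edgeR, was 2 with DESeq2, 0 with all rows kept (112 at an unadjusted p under 0.05), 0 with limma on the authors' log2 values (133 at that level), 2 without both libraries numbered 3, and 0 to 2 with 1 library left out. The members without overlap numbered 2, 14 (26.9%, against 31.1% of all genes tested) without both libraries numbered 3, and 3 to 10 (5.77% to 19.2%, against 10.1% to 24.6% of all genes tested) with 1 library left out. Deviations of same-numbered libraries correlated across genes at 0.00468 for number 1, 0.0188 for number 2 and 0.340 for number 3. Transgenic 2 and Control 1, of unlike number, reached 0.415, so the numbers did not pair the libraries throughout. Both libraries numbered 3 also shared the unequal Ugt1a split, and whether they shared a batch was not tested. The replicate block called 1 gene and 0 members. Without both libraries numbered 3, the log2 fold change turned sign for 16 of 52 members, among them 10 of the 32 taken by the rule for named genes, Cyp2e1 (−0.058), Cyp51 (0.032), Gsta3 (0.12), Gstm1 (−0.056), Gstp1 (−0.023), Mgst3 (0.10), Sult1d1 (0.044), Ugt1a1 (−0.0056), Ugt2b37 (0.14) and Ugt2b38 (0.079), and Cyp2d9, Cyp2j11, Fmo4, Gstm7, Sult1a1 and Ugt3a1 besides; the cause was not tested. With 1 library left out it ranged over both signs for 29 of 52 members, among them 15 of those 32, Cyp2e1 (−0.061 to 0.079), Cyp2j5 (−0.19 to 0.046), Gsta3 (−0.19 to 0.17), Gsta4 (−0.028 to 0.019), Gstm1 (−0.12 to 0.24), Mgst3 (−0.14 to 0.10), Sult1c2 (−0.26 to 0.013), Ugt1a1 (−0.55 to 0.58), Ugt1a10 (−0.86 to 0.78), Ugt1a2 (−0.58 to 0.54), Ugt1a5 (−0.59 to 0.57), Ugt1a6a (−0.20 to 0.16), Ugt1a7c (−0.74 to 0.68), Ugt2b38 (−0.31 to 0.084) and Ugt3a2 (−0.16 to 0.021). The other 14 were Cyp27a1, Cyp2d9, Cyp2j11, Cyp2j6, Fmo2, Fmo4, Gstm2, Gstm5, Gstm7, Gsto1, Gstt3, Sult1a1, Ugt1a9 and Ugt3a1. Every measured Ugt1a row is among the 29, and single Ugt1a rows are not comparable between libraries. Cyp2d12, Cyp2a5 and Gsta2 kept their direction in all 16 alternatives, and 19 of 52 members had 1 sign in every setting fitted on the single rows.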
